A study of Mus musculus with 10 samples.

Results

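Genes of cholesterol synthesis and of fatty acid synthesis and desaturation were followed across mouse mammary tumours. The list held 32 genes, 19 of the sterol pathway and 13 of fatty acid synthesis, and a gene was taken where a probe set carried its symbol alone. In the values used here 25 of the 32 genes had such a probe set, 15 of the sterol genes and 10 of the fatty acid genes, out of 8251 genes with a symbol of their own. The 10 arrays (Affymetrix MG-U74Av2, biotin-labelled total RNA) held mammary tumour RNA of adult females, 90 days old, with the MMTV-PyMT transgene, in which the long terminal repeat of mouse mammary tumour virus drives the polyoma middle T antigen in mammary epithelium. Every sample was labelled with the strain FVB/Nj, and the groups came from the strain names in the titles: FVBn with 1 array, and ILn, LP, NZB and MOLF with an array A and an array B each (2 per name). The 10th array, with no strain name in its title, entered no comparison. The labels do not say how each named strain was joined to FVB/Nj. The titles call the strain samples a mix without saying what was mixed, so a p-value below reflects no more than the spread among these arrays, possibly a technical one.

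Mammalian cells build cholesterol from acetyl-CoA through mevalonate, isoprenoid diphosphates, squalene and lanosterol, and they build fatty acids from the same acetyl-CoA through malonyl-CoA. SREBP2, the product of Srebf2, mainly drives the sterol genes, and SREBP1c, a product of Srebf1, mainly drives the fatty acid genes. Insig1 holds both in the endoplasmic reticulum when sterols are plentiful. In the mammary gland fatty acid synthesis feeds milk fat in the epithelium, and the surrounding fat pad makes and stores fatty acids in its adipocytes.

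Promoters of these genes are known to carry the CCAAT box, bound by NF-Y, and the sterol regulatory element, bound by the SREBPs. The promoters of 4 of the member genes are shown from RefSeq (build GRCm38.p6), from 250 bases before to 50 bases after the annotated start, on the strand of the gene. No promoter sequence was at hand for Fdps and Scd2. Capitals mark CCAAT on either strand (read as ATTGG on the other one) and, in Hmgcs1, the match to TCACNCCAC.
Hmgcs1, chr13:119690101-119690400, plus strand: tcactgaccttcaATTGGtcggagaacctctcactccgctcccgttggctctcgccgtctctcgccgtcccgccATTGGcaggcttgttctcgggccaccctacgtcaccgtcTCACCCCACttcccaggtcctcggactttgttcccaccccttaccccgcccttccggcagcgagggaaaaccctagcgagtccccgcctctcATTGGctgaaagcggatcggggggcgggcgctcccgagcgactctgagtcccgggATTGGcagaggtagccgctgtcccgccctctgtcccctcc
Idi1, chr13:8885356-8885655, plus strand: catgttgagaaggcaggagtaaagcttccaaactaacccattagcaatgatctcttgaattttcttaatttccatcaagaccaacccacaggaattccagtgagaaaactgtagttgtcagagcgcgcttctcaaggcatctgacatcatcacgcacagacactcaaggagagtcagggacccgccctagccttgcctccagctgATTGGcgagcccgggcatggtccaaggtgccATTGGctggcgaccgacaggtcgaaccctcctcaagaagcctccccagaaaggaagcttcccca
Fasn, chr11:120824498-120824797, minus strand: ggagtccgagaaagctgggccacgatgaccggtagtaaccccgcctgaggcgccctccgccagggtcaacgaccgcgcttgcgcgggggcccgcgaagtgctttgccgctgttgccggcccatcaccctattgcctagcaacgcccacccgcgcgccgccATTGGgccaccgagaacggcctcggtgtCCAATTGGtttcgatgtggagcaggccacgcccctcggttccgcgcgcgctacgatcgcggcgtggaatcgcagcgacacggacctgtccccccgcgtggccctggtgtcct
Thrsp, chr7:97417501-97417800, minus strand: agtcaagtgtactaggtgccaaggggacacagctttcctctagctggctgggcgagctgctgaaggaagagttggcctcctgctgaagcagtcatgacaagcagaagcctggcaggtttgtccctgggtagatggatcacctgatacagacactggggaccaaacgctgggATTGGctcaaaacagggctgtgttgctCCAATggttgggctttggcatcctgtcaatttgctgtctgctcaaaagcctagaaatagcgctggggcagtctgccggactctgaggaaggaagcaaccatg

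The Hmgcs1 window held 4 CCAAT boxes and a TCACNCCAC match whose first base lay 137 bases before the start. The Idi1 and Thrsp windows each held 2 CCAAT boxes, and in Fasn 2 of the 3 matches overlapped each other. Of the 32 members 25 had a window in the table, some with several starts, and CCAAT was found in 22 of their 31 windows (71.0%), against 37.4% of 32851 mouse promoter windows. It was present in 14 of 18 sterol windows and 8 of 13 fatty acid windows. The Sp1-type GC box GGGCGG was found in 21 of 31 windows (67.7%, against 35.7% of all), the E-box CACGTG in 5 (16.1%, against 7.15%) and TCACNCCAC in 1 (3.23%, against 1.24%). All motifs were read on both strands, and a match describes letters in the window only.

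Levels are log2 intensities after quantile normalization, with a floor at 4.75 (an intensity of 27.0), and they are compared between arrays for the same probe set only. Of the 25 genes 23 stayed above the floor on at least 2 of the 9 strain arrays and were tested, 13 sterol and 10 fatty acid genes, and 21 of these were above it on all 9. Srebf2, Acat2, Pmvk, Stard4, Acss2, Acaca and Fads2 were not analysed here. Insig1 lay at the floor on all 10 arrays, and Hsd17b7, a reductase of the late sterol pathway, exceeded it on FVBn alone, at 5.22. All 6 mammary epithelial and all 9 milk genes examined were above the floor on the 9 strain arrays, while the adipocyte genes Cd36, Cidec and Pparg lay at the floor on all 9. The 9 arrays carried 3 dates in their titles, with FVBn B, ILn B, LP B, MOLF B and NZB A sharing a date, ILn A and NZB B another, and LP A and MOLF A the last. Before normalization the median log2 intensity was 6.44 on MOLF A and 6.40 on NZB B, against 5.96 to 6.03 on the other strain arrays of the same scale. Arrays of the same name correlated at 0.974 for ILn and 0.961 for LP over all tested probe sets, but at 0.868 for MOLF and 0.852 for NZB. The actin 3' to 5' log2 ratio, a measure of RNA integrity, was 0.22 to 0.28 on FVBn and ILn and 0.60 to 1.12 on the other strain arrays.

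The strain names did not separate the lipid synthesis genes past the test. In limma 0 of the 23 members passed in any of the 6 comparisons, namely an F test over ILn, LP, MOLF and NZB, each of those names against the mean of the other 3, and FVBn against the mean of the 4. At an unadjusted p under 0.05 stood 4 members in the F test, 2 for ILn, 4 for LP, 3 for MOLF, 2 for NZB and 0 for FVBn. Of all 9899 tested probe sets 0.748% passed in the F test, 0.404% for ILn, 0.313% for LP, 0.414% for MOLF, 0.101% for NZB and 0.313% for FVBn. At the unadjusted level the shares of all probe sets were 7.9%, 7.11%, 5.69%, 6.42%, 8.4% and 3.41%, in the same order. The smallest adjusted p of a member was 0.168, for Thrsp in ILn. The median standard error of a member's log2 difference was 0.242 for the names with 2 arrays and 0.314 for FVBn. With 1 array FVBn has no spread of its own, and its tests assume that it varies like the other names. In whole tumour RNA fewer cells of a type and less RNA per cell cannot be told apart.

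**Figure D1:**
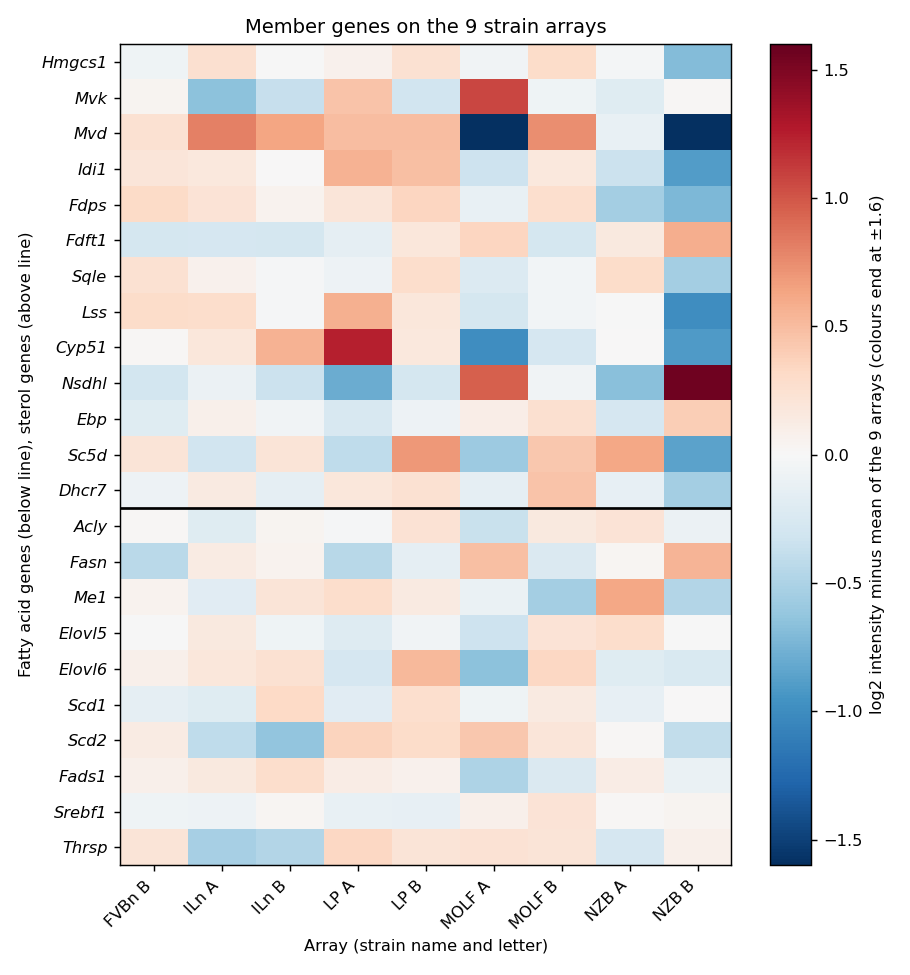
Log2 intensity of the 23 tested genes (rows, sterol genes above the line) on the 9 strain arrays (columns), as the difference from each gene's mean of the 9 arrays. NZB B holds the lowest value of 7 of the 13 sterol genes, while Fdft1, Nsdhl and Ebp are highest there. The share of all probe sets lowest on NZB B alone was not computed.

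The early sterol genes make isoprenoid units from acetyl-CoA. Hmgcs1, which makes HMG-CoA, read 7.70 on FVBn, 8.03 and 7.76 on ILn A and B, 7.84 and 8.02 on LP, 7.72 and 8.07 on MOLF, and 7.75 and 7.08 on NZB. Its lowest value by far was NZB B, and the other 8 arrays lay within a narrow band. Mvk, the kinase of mevalonate, read 7.58 on FVBn, 6.88 and 7.17 on ILn, 7.99 and 7.22 on LP, 8.60 and 7.46 on MOLF, and 7.34 and 7.55 on NZB. Both ILn arrays lay below the other 7 (difference −0.67, SE 0.355, adjusted p = 0.788), and the MOLF difference of 0.67 (adjusted p = 0.856) came with arrays that were 1.14 apart. The second Mvk probe set lay at the floor on all 9 arrays. Mvd, which makes isopentenyl diphosphate, read 6.64 on FVBn, 7.21 and 7.04 on ILn, 6.90 and 6.89 on LP, 7.15 on MOLF B and 6.29 on NZB A, and lay at the floor on MOLF A and NZB B. Its differences were 1.0 for ILn, 0.70 for LP, −0.56 for MOLF and −1.14 for NZB, with a standard error of 0.664 and no adjusted p under 0.655. Without MOLF A the MOLF difference was 0.65, of the opposite sign.

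Idi1 and Fdps stand next to each other in the pathway, and by the probe set with the highest mean both were at their lowest on the NZB arrays. Idi1, which interconverts isopentenyl and dimethylallyl diphosphate, read 8.27 on FVBn, 8.24 and 8.08 on ILn, 8.64 and 8.56 on LP, 7.74 and 8.24 on MOLF, and 7.73 and 7.19 on NZB. The LP arrays lay above all others and the NZB arrays below all others, the nearest being MOLF A. The Idi1 difference was −0.79 for NZB (SE 0.221, adjusted p = 0.397) and 0.73 for LP (SE 0.221, adjusted p = 0.528). Fdps, which makes farnesyl diphosphate, read 9.46 on FVBn, 9.37 and 9.21 on ILn, 9.35 and 9.50 on LP, 9.04 and 9.42 on MOLF, and 8.61 and 8.44 on NZB. NZB was 8.53 ± 0.12 (SD, n = 2) and 1.73-fold below the mean of ILn, LP and MOLF (log2 difference −0.79, SE 0.152, adjusted p = 0.193 in limma). Within the date that 5 arrays shared, NZB A was 0.76 below the mean of ILn B, LP B and MOLF B for Fdps and 0.56 below it for Idi1. On the other date that NZB shared, ILn A exceeded NZB B by 0.93 for Fdps and 1.06 for Idi1. With the date as a block the NZB differences were −0.88 for Fdps (adjusted p = 0.536) and −0.80 for Idi1 (adjusted p = 0.884). The other 2 tested Fdps probe sets gave NZB differences of −0.21 (adjusted p = 0.700) and −0.35 (adjusted p = 0.735), also below 0 but smaller. Neither had both NZB arrays lowest. On the first, ILn B was the lowest array (8.61) and NZB A read 8.92. On the second, the MOLF mean was 4.83 against 5.21 for NZB (MOLF difference −0.86, adjusted p = 0.676).

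From squalene onward the sterol genes did not share a direction. Fdft1, the squalene synthase, read 7.5 on FVBn, 7.51 and 7.49 on ILn, 7.63 and 7.95 on LP, 8.12 and 7.49 on MOLF, and 7.93 and 8.36 on NZB. NZB B was its highest array, and MOLF A lay above NZB A (NZB difference 0.45, SE 0.243, adjusted p = 0.655). Sqle, the squalene epoxidase, read 8.52 on FVBn, 8.34 and 8.26 on ILn, 8.19 and 8.56 on LP, 8.06 and 8.23 on MOLF, and 8.57 and 7.73 on NZB, so the arrays of a single name held both of its extremes. Lss, which closes the rings to lanosterol, read 7.09 on FVBn, 7.09 and 6.79 on ILn, 7.38 and 6.99 on LP, 6.53 and 6.76 on MOLF, and 6.80 and 5.82 on NZB. NZB B was its lowest array by a wide margin, and NZB A lay among the others. Cyp51, the lanosterol demethylase, read 6.17 on FVBn, 6.33 and 6.70 on ILn, 7.40 and 6.32 on LP, 5.16 and 5.88 on MOLF, and 6.15 and 5.24 on NZB. Its LP difference of 0.95 (SE 0.438, adjusted p = 0.903) came with LP arrays that were 1.07 apart, and LP B lay below ILn A. For MOLF the Cyp51 difference was −0.84 (adjusted p = 0.852), and its arrays overlapped those of NZB.

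The last steps turn lanosterol into cholesterol. Nsdhl, a sterol dehydrogenase that helps remove methyl groups, read 7.60 on FVBn, 7.80 and 7.56 on ILn, 7.11 and 7.62 on LP, 8.86 and 7.84 on MOLF, and 7.23 and 9.45 on NZB. NZB A and NZB B therefore stood 2.22 apart, near the opposite ends of the range. The 3 Nsdhl probe sets disagreed, with NZB differences of 0.54, −0.56 and −1.02 (adjusted p = 0.756, 0.541 and 0.624), so no direction can be given. Ebp, a sterol isomerase, read 7.56 on FVBn, 7.83 and 7.69 on ILn, 7.49 and 7.67 on LP, 7.86 and 8.0 on MOLF, and 7.48 and 8.14 on NZB. The NZB arrays again held both extremes. Dhcr7, the final reductase, ranged from 6.98 on NZB B to 7.98 on MOLF B. Sc5d, a sterol desaturase, ranged from the floor on NZB B to 6.30 on LP B.

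As a group the 13 tested sterol genes had a median difference of −0.46 in NZB, where 10 of 13 were below 0, and of 0.23 in LP, where 10 of 13 were above 0. Over all tested probe sets the medians were 0.00 and −0.01, with 50.1% below 0 in NZB and 49.0% above 0 in LP. The medians were 0.08 in ILn, −0.01 in MOLF and 0.06 in FVBn. Without MOLF A and NZB B the median was −0.28 in NZB, with 10 of 13 below 0, and 0.11 in LP, with 10 of 13 above 0. The mean of the 13 genes, each centred on its 9 arrays, was −0.09 on NZB A and −0.40 on NZB B, 0.16 and 0.20 on LP A and B, and from −0.15 to 0.14 on the other strain arrays. The mean of 6 tested adipocyte genes was also highest on the LP arrays (0.38 and 0.39) and lowest on NZB B (−0.36). These 6 genes went both ways, with 4 above 0 and 2 below in LP, and 2 above and 4 below in NZB. In both comparisons 0 of them passed the test. The means of 10 skeletal muscle genes were highest on LP too (1.6 and 1.55), with 6 of 10 past the test. On NZB the muscle means were 1.23 and 1.24. The part of these lists in the sterol values was not tested.

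The fatty acid genes varied less from array to array than the sterol genes. Among them only Thrsp set both ILn arrays apart below the rest, while for Scd2 ILn A was level with NZB B. Thrsp, a regulator of lipogenesis in liver, fat and mammary epithelium, read 10.31 on FVBn, 9.57 and 9.63 on ILn, 10.44 and 10.30 on LP, 10.34 and 10.31 on MOLF, and 9.84 and 10.19 on NZB. ILn was 9.60 ± 0.04 (SD, n = 2) and 1.55-fold below the mean of the other 3 names (log2 difference −0.64, SE 0.128, adjusted p = 0.168 in limma). Scd2, a stearoyl-CoA desaturase that introduces a double bond into saturated fatty acids, read 11.37 on FVBn, 10.84 and 10.61 on ILn, 11.60 and 11.53 on LP, 11.67 and 11.44 on MOLF, and 11.26 and 10.84 on NZB. ILn A and NZB B were level at 10.84, and the ILn difference was −0.67 (1.59-fold, SE 0.148, adjusted p = 0.238). The second Scd2 probe set gave −0.31 in ILn (adjusted p = 0.710). Within the shared date of 5 arrays ILn B was 0.52 below the mean of LP B, MOLF B and NZB A for Thrsp and 0.80 below it for Scd2. On the date that ILn A shared with NZB B, ILn A was lower by 0.62 for Thrsp, while Scd2 showed no difference. Salivary gland genes moved with the ILn name: 5 of 6 tested rose in ILn (median difference 5.04), with means of 2.96 and 2.86 on the ILn arrays, 3.74 on FVBn and at most 0.02 on the others. Their part in the Thrsp and Scd2 values was not tested. With the date as a block the ILn differences were −0.66 for Thrsp (adjusted p = 0.610) and −0.59 for Scd2 (adjusted p = 0.897).

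**Figure D2:**
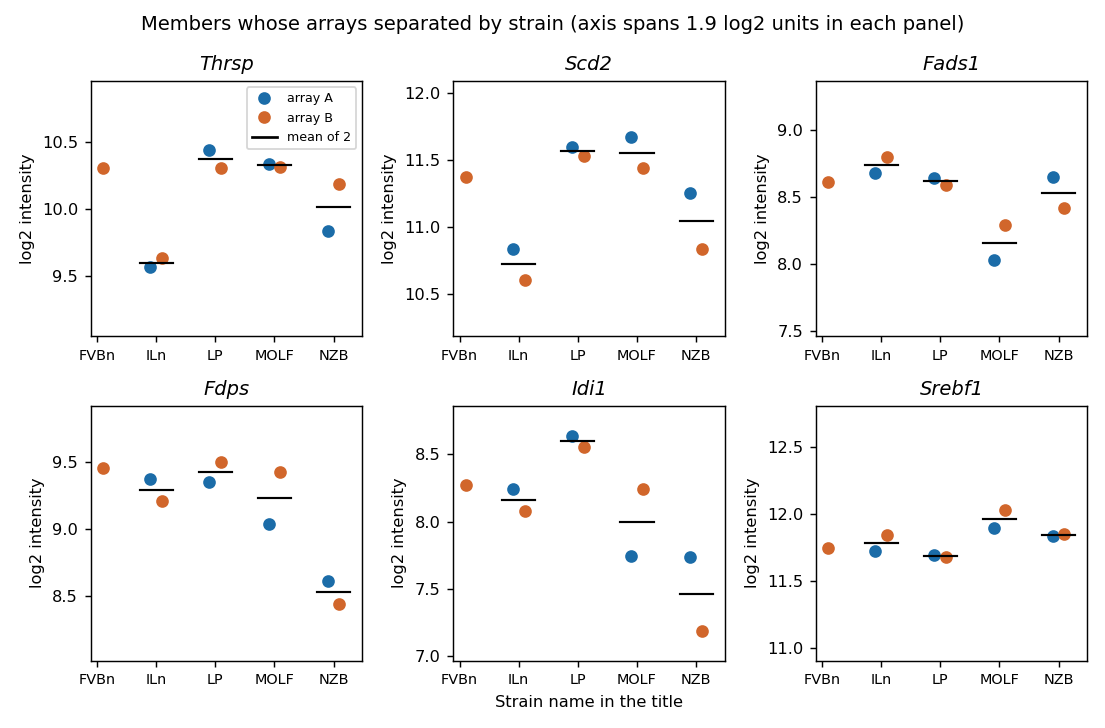
Log2 intensity of 6 genes on each strain array (points, array A or B) with the mean of 2 arrays (bar), in panels that each span the same length of the log2 axis. Thrsp lies lowest on the ILn arrays, Fads1 on the MOLF arrays, and Fdps and Idi1 on the NZB arrays, but none passed the test. Scd2 lies lowest on ILn B, with ILn A level with NZB B.

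Fads1, which desaturates polyunsaturated fatty acids, read 8.61 on FVBn, 8.68 and 8.80 on ILn, 8.65 and 8.59 on LP, 8.03 and 8.29 on MOLF, and 8.65 and 8.42 on NZB. The MOLF arrays lay below all others (difference −0.47, SE 0.153, adjusted p = 0.543) and the ILn arrays just above all others (difference 0.30, adjusted p = 0.778). Srebf1 read 11.74 on FVBn, 11.72 and 11.84 on ILn, 11.69 and 11.68 on LP, 11.90 and 12.03 on MOLF, and 11.83 and 11.85 on NZB. Its whole range was 0.35, the narrowest of the 23 genes, and within it LP lay below all others (difference −0.18, adjusted p = 0.903) and MOLF above (0.19, adjusted p = 0.864). Fasn, the fatty acid synthase itself, read 8.90 on FVBn, 9.47 and 9.39 on ILn, 8.89 and 9.20 on LP, 9.81 and 9.10 on MOLF, and 9.36 and 9.88 on NZB. Its differences were −0.46 for LP (adjusted p = 0.903), 0.31 for NZB (adjusted p = 0.695) and −0.48 for FVBn (adjusted p = 0.999), and MOLF A and NZB B held its highest values.

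By their chosen probe sets, none of the remaining fatty acid genes had strain arrays without overlap. Acly, which supplies cytosolic acetyl-CoA from citrate, ranged from 9.50 on MOLF A to 10.09 on LP B. Me1, the malic enzyme that supplies NADPH, ranged from 7.96 on MOLF B to 9.13 on NZB A. The fatty acid elongase Elovl5 ranged from 9.13 on MOLF A to 9.74 on NZB A. Elovl6, which extends saturated chains, read 7.05 on FVBn, 7.16 and 7.22 on ILn, 6.70 and 7.49 on LP, 6.32 and 7.31 on MOLF, and 6.77 and 6.73 on NZB. The MOLF arrays held its lowest and its next to highest value. Scd1, the main desaturase of fat and liver, ranged from 11.84 on ILn A to 12.36 on ILn B and its differences were −0.16 for FVBn, −0.11 for NZB and between 0.02 and 0.06 for the other names. Another Scd1 probe set gave 11.27 and 11.49 on LP against 10.58 to 10.98 on the other 7 arrays (difference 0.61, SE 0.118, adjusted p = 0.179). On it the MOLF arrays, at 10.70 and 10.58, lay below all others (difference −0.38, adjusted p = 0.499). The 10 fatty acid genes had median differences of 0.14 in LP, 0.04 in ILn, 0.03 in NZB, −0.02 in MOLF and 0.04 in FVBn, against medians between −0.02 and 0.01 over all tested probe sets. Under median centring in place of quantile normalization the median turned to −0.23 in NZB, and the mean of the 10 genes moved from −0.08 to −0.47 on MOLF A and from −0.07 to −0.49 on NZB B.

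By the chosen probe sets, the counts of genes whose arrays did not overlap with those of other names were small. For ILn, LP, MOLF and NZB the others counted here, for members and for all probe sets, are the arrays of the other 3 of these names, without FVBn. For ILn 3 of 23 members lay below all others (13.0%, against 3.77% of all tested probe sets) and 1 above (4.35%, against 6.6%). The 3 below included Scd2, although its ILn A and NZB B values were level at the digits given here. For NZB 2 lay below (8.7%, against 4.24%) and 0 above (3.74% of all). For LP there was 1 above (4.47% of all) and 1 below (2.55% of all), and for MOLF likewise 1 above (2.84% of all) and 1 below (3.38% of all). The single FVBn array held neither the highest nor the lowest value of any of the 23 tested genes by these probe sets, while it was highest for 7.85% and lowest for 5.74% of all probe sets. It was highest for the untested Hsd17b7 and for the second Scd2 probe set (10.48). By the chosen probe sets the largest FVBn differences were −0.48 for Fasn, −0.34 for Nsdhl, −0.31 for Fdft1, 0.34 for Fdps, 0.32 for Lss and 0.27 for Sqle. The second Elovl6 probe set gave −0.98, against 0.09 by the chosen one. The other 2 Nsdhl probe sets gave 0.20 and 0.56, of the opposite sign. None of these passed the test.

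Other genes of lipid handling also had 0 genes past the test. Of 26 listed genes of sterol synthesis, uptake and export outside the 32, 14 were measured, and of 30 genes of fatty acid supply, activation and triglyceride synthesis 16 were measured and 13 tested. In limma 0 of these 14 and 0 of these 13 passed in any comparison. At an unadjusted p under 0.05 stood 1 sterol gene in the F test, 1 for LP, 3 for MOLF and 0 elsewhere, and 1 fatty acid gene in the F test and for ILn, LP and MOLF, 3 for NZB and 0 for FVBn. The shares of all tested probe sets at that level were 7.9% in the F test, 7.11% for ILn, 5.69% for LP, 6.42% for MOLF, 8.4% for NZB and 3.41% for FVBn. Msmo1, the sterol methyl oxidase that acts after Cyp51, read 5.52 on FVBn, 5.70 and 5.67 on ILn, 6.08 and 6.37 on LP, 5.20 and 4.92 on MOLF, and 5.49 on NZB A, with NZB B at the floor. The LP arrays lay above all others, as they did for Idi1 (difference 0.93, SE 0.283, adjusted p = 0.528). The 14 sterol genes outside the 32 did not share this direction as a list. Their median difference was 0.07 in LP and 0.01 in NZB, with 8 of 14 above 0 in each.

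The sterol genes varied between arrays of the same name as well as between names. The range of the ILn, LP, MOLF and NZB means had a median of 0.88 for the sterol genes, 0.49 for the fatty acid genes and 0.58 for all tested probe sets. Over the 9 strain arrays the range of a sterol gene had a median of 1.45 (0.66 to 2.46), and that of a fatty acid gene a median of 0.82 (0.35 to 1.17), against 1.09 for all tested probe sets. Between array A and array B the sterol genes differed by a median of 0.67 in NZB, 0.60 in MOLF, 0.32 in LP and 0.24 in ILn. The fatty acid genes differed by 0.30, 0.35, 0.14 and 0.17, and all probe sets by 0.46, 0.46, 0.24 and 0.21, in the same order. MOLF A or NZB B held the lowest value for 9 of the 13 sterol genes (69.2%), for 4 of the 10 fatty acid genes (40.0%) and for 37.3% of all tested probe sets. They held the highest value for 4 sterol genes, 2 fatty acid genes and 35.8% of all. NZB B alone was lowest for 7 of the 13 sterol genes and 0 of the 10 fatty acid genes. The share of all probe sets for this array alone was not computed.

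**Figure D3:**
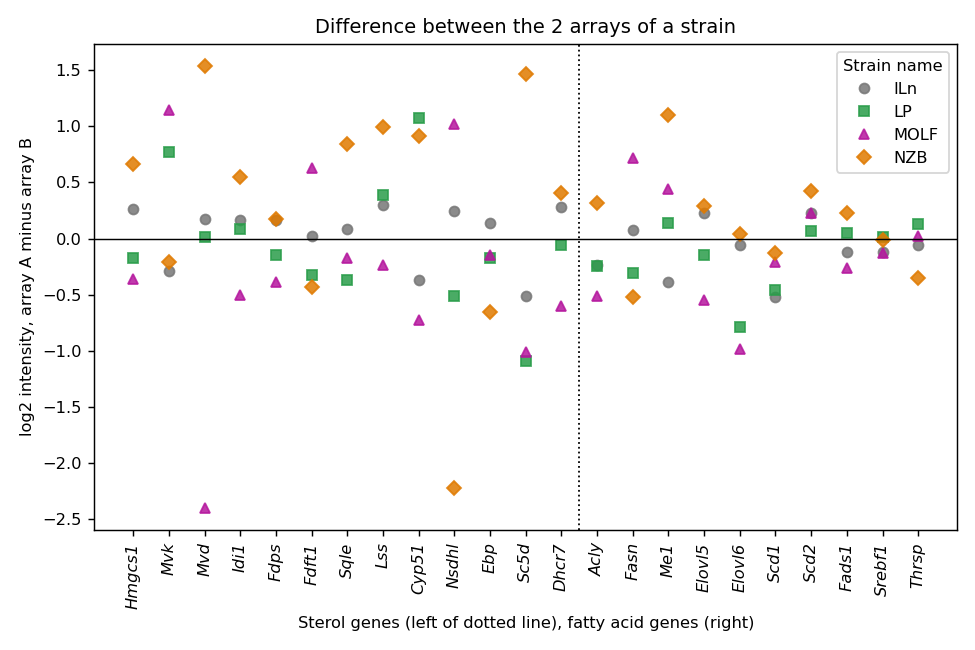
Difference in log2 intensity between array A and array B of ILn, LP, MOLF and NZB for each of the 23 genes, with sterol genes left of the dotted line. The MOLF and NZB points reach −2.39 for Mvd and −2.22 for Nsdhl, while the ILn points stay within 0.52 of 0.

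The array without a strain name combined high fatty acid synthesis transcripts with sterol transcripts mostly inside the range of the strain arrays. It lay above all 9 strain arrays for 8 of the 10 fatty acid genes (80.0%) and for 2 of the 13 sterol genes (15.4%), against 16.4% of all tested probe sets. It lay below them for 1 fatty acid gene and 2 sterol genes, against 17.3% of all. Fasn read 12.69 there and at most 9.88 on the strain arrays. Elovl6 read 10.48 against at most 7.49, and its second probe set 9.07 against at most 6.39. Me1 read 11.04 against at most 9.13, Thrsp 11.95 against at most 10.44, and Acly 10.95 against at most 10.09. Scd1 read 13.17 against at most 12.36, and its second probe set 13.25 against at most 11.49. Elovl5 (9.96) and Fads1 (9.06) also exceeded the strain arrays, whereas Scd2 (10.73) lay within them and Srebf1 lay below, at 10.58 against 11.68 to 12.03.

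Of the sterol genes Hmgcs1 (8.81) and Sc5d (6.84) lay above the strain arrays, and Dhcr7 (5.97) and Ebp (7.06) below. The other 9 lay inside, among them Fdps (8.80), Idi1 (7.38), Cyp51 (6.79), Lss (6.93) and Sqle (7.91). Nsdhl lay inside by its chosen probe set (8.09), but its other 2 lay just above the strain arrays, at 8.21 against at most 8.13 and 7.54 against at most 7.25. The mean of the 10 fatty acid genes, centred on the strain arrays, was 1.28 there and −0.10 to 0.14 on the strain arrays. For the 13 sterol genes the same mean was 0.03 there and −0.40 to 0.20 on the strain arrays.

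Adipocyte genes were high on the same array. Of 9 measured, 7 lay above all 9 strain arrays, among them untested genes at the floor on those 9. Of the 6 tested, 5 lay above, against 16.4% of all tested probe sets. The mean of the 6 tested ones was 3.66 against −0.36 to 0.39. Adipoq, the fat hormone adiponectin, read 12.43 against 6.97 to 8.40, Lpl, the lipoprotein lipase, 11.63 against 6.04 to 7.57, and Cidec, a lipid droplet protein, 9.48 against the floor on all 9. The mean of 6 mammary epithelial genes was −0.84 there, against −0.30 to 0.16, and of 9 milk genes −0.86, against −0.22 to 0.32. The milk genes went both ways, with 4 of 9 above all strain arrays and 4 below (16.4% and 17.3% of all tested probe sets). Wap, a whey protein, lay at the floor there and between 10.19 and 11.53 on the strain arrays, while the casein Csn1s2a read 11.55 there and at most 10.82 on them. The mean of 10 skeletal muscle genes was 3.30 there, against −2.14 to 1.6. The part of these cell types in the fatty acid gene values was not tested, and this array carried a date of its own.

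**Figure D4:**
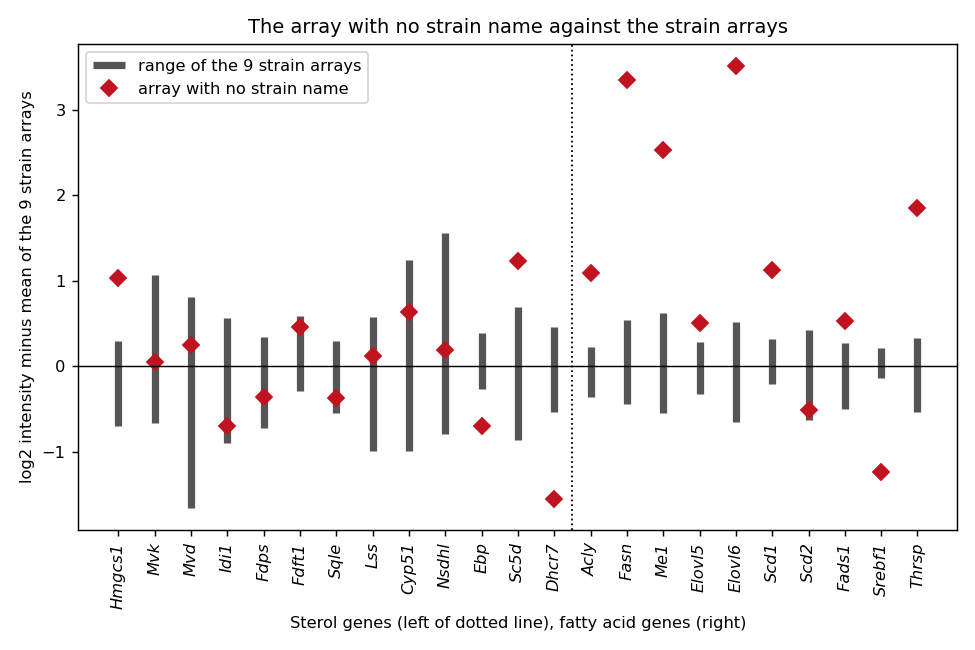
Log2 intensity minus the mean of the 9 strain arrays for the array with no strain name (diamonds) and the range of the 9 strain arrays (bars), with sterol genes left of the dotted line. Fasn, Elovl6, Me1 and Thrsp lie far above the bars, and Dhcr7 and Srebf1 below them.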

How the data were processed

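Mammary tumour RNA of 10 samples was measured on Affymetrix MG-U74Av2 arrays. The deposited values were intensities on a linear scale, 1 per probe set. How probes were summarised into probe sets (not given in the sources used here) could not be checked. The trimmed mean without the outer 2% at each end was 150.1 on 9 arrays and 500.2 on ILn A, so the deposited intensities had been scaled per array. The number of arrays limits the precision.

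The 66 control probe sets were removed from 12488. Of the rest 10833 had 1 gene symbol, 396 several and 1193 none, and 10817 were matched by Entrez identifier to RefSeq (GRCm38.p6). The 9 strain arrays were quantile normalized on the log2 scale, floored at the 30th percentile, and 9899 probe sets above the floor on at least 2 arrays were tested. The unnamed array was mapped onto the same quantiles. A model with a mean per strain name was fitted with limma 3.58.1 in R 4.3.3 (lmFit, eBayes with an intensity trend, 4 residual degrees of freedom), with Benjamini-Hochberg adjustment over all tested probe sets at 0.05. Its code was tested on simulated data.

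A gene was represented by the probe set with the highest mean. Values by array were given for the 5 genes of each group with the smallest F test p, the 3 with the largest difference each way per comparison, and the regulators, with the other genes by ranges. Hmgcs1 was given by array in addition, because its promoter is shown. The members and gene lists were chosen with earlier results of these data known. Other settings were another normalization, filter, floor, variance model and probe set rule, the title date or the array letter as a block, and arrays left out. The letters did not pair the samples: the correlation of A minus B differences between strain names ran from −0.707 (MOLF with NZB) to 0.131.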

Additional observations from a re-analysis of the deposited data

Results flagged for a closer look

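On the array with no strain name, which entered no comparison, 6 fatty acid genes and the mean of their group lay above every strain array by more than the whole range of the strain arrays. Fasn read 12.69 (strain arrays 8.89 to 9.88), Elovl6 10.48 (6.32 to 7.49), Me1 11.04 (7.96 to 9.13), Thrsp 11.95 (9.57 to 10.44), Acly 10.95 (9.50 to 10.09) and Scd1 13.17 (11.84 to 12.36). The mean of the 10 fatty acid genes was 1.28 (−0.10 to 0.14). On the same array 5 of 6 tested adipocyte genes lay above all strain arrays (7 of 9 measured), and of 9 milk genes 4 lay above and 4 below. Of all tested probe sets 16.4% lay above and 17.3% below. The part of these cell types in the values was not tested.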

How the results depend on the processing

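Under every alternative run the members past the test stayed at 0 in each comparison, also with each array of ILn, LP, MOLF and NZB left out in turn (0 to 0), except that with no filter on dim probe sets 1 member passed for FVBn: Hsd17b7, above the floor on that array alone. The smallest adjusted p of a tested member over the other alternatives was 0.132 in the F test, 0.106 for ILn, 0.258 for LP, 0.257 for MOLF, 0.102 for NZB and 0.775 for FVBn. Among the 3 largest differences each way per comparison, sign turns fell on Mvd and Nsdhl only. The signs of smaller differences were not counted. The MOLF difference of Mvd was 0.40 without MOLF A and NZB B, and with 1 array left out it ran from −1.75 (without MOLF B) to 0.65 (without MOLF A). The NZB difference of Nsdhl was −0.41 without MOLF A and NZB B, −0.35 with the mean of the probe sets, and with 1 array left out it ran from −0.57 (without NZB B) to 1.65 (without NZB A). Its FVBn difference was 0.034 with the title date as a block, 0.069 without MOLF A and NZB B and 0.14 with the mean of the probe sets. The cause was not tested. The sterol median stayed between −0.82 and −0.13 in NZB and between 0.11 and 0.37 in LP, while each fatty acid median took both signs. Over all probe sets the number past the test was 74 in the F test (14 to 74 over the alternatives), 40 for ILn (5 to 55), 31 for LP (0 to 37), 41 for MOLF (0 to 48), 10 for NZB (0 to 35) and 31 for FVBn (10 to 102). With the array letter as a replicate block 0 members passed, and over all probe sets 31 in the F test, 28 for ILn, 9 for LP, 26 for MOLF, 7 for NZB and 20 for FVBn. Signal limits Insig1 and Hsd17b7, which lay at or near the floor.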

Other observations

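Outside the 32 genes, other fatty acid genes also lay above all 9 strain arrays on the array with no strain name, 8 of 13 tested, with 2 below. Of all tested probe sets 16.4% lay above and 17.3% below. Slc25a1, the mitochondrial citrate carrier, read 10.89 (9.0 to 9.47 on the strain arrays), Lpin1, a phosphatidate phosphatase of triglyceride synthesis, 9.18 (6.79 to 7.37), and Dgat1, which completes triglycerides, 9.06 (6.94 to 8.07). Acsl4, which activates arachidonic acid, read 6.98 and lay below (9.23 to 9.98). Of 14 other sterol genes 4 lay above and 2 below. Nr1h3, the sterol-sensing receptor LXR alpha, read 8.13 (5.46 to 6.19).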
